A study of Mus musculus with 9 samples.

Results

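Zfp189 is 1 of 36172 features in a table of gene counts from the medial prefrontal cortex of DBA2/J mice, and its row was found by its NCBI gene identifier. It was selected on its measured difference between the inhibitor-treated and the vehicle-treated stressed mice, so its own levels are given as a description, with no test. The 3 groups have 3 libraries each. SA:ANH-KDM5Ci are mice that went through 5 days of social defeat, were classed as the SA:ANH subtype and received an inhibitor of KDM5C, an X-linked demethylase of histone H3 lysine 4. SA:ANH-vehicle are mice of that subtype that were defeated in the same way and received vehicle, which the treatment labels call saline. NS are non-stressed mice, which the treatment labels also list with saline. All mice are DBA2/J, an inbred strain. The inhibitor's name and dose, the ages, the number of mice behind each library and the meaning of SA:ANH are not given in the sources used here. Inhibitor was given only to defeated mice, so its effect without defeat was not measured, and what it does to proteins other than KDM5C was not measured either.

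Zfp189 encodes a zinc finger protein of the C2H2 class with a KRAB domain. Proteins of this class bind DNA through their fingers, and the KRAB domain recruits the corepressor TRIM28, which brings the histone methyltransferase SETDB1 and heterochromatin protein 1 to the bound site. In the prefrontal cortex of mice, earlier work linked Zfp189 to resilience to chronic social defeat and placed it under the transcription factor CREB. KDM5 enzymes remove methyl groups from histone H3 lysine 4, a mark of active promoters.

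The gene lies on the plus strand of chromosome 4, from 49521176 to 49531558 in GRCm38, the assembly that mm10 names. GENCODE lists a transcript of 4 exons and one of 3 exons, with 2835 and 2965 bases, which share the last 2 exons and a start codon at 49521563. The last exon, of 2501 bases, holds most of either transcript. Mrpl50, a gene of the mitochondrial ribosome, starts 93 bases upstream on the other strand, at 49521083, so the pair faces away from a shared stretch of DNA. The window from 250 bases before to 50 bases after the Zfp189 start (chr4:49520926-49521225, plus strand, RefSeq, GRCm38.p6) is shown because it holds the starts of both genes, and its capitals mark a CCAAT box and a CRE half-site.
Zfp189 promoter: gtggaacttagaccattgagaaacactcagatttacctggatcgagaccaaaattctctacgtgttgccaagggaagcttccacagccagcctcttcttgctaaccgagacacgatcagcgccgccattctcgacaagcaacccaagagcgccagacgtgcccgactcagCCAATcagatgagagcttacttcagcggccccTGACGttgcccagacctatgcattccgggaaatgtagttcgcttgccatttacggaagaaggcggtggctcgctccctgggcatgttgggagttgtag
The CRE half-site, TGACG or its reverse CGTCA, is the shortest form of the site that CREB binds. It occurred once, 48 bases before the Zfp189 start, and 20.8% of the 32851 RefSeq windows of this length hold it. The CCAAT box (CCAAT or ATTGG) occurred once, 80 bases before that start, and is in 37.4% of the windows. Both matches lie between the 2 starts. The full CRE (TGACGTCA, in 1.79% of windows, which contains the half-site), the E-box (CACGTG, in 7.15%), the GC box (GGGCGG or CCGCCC, in 35.7%) and the palindromic glucocorticoid response element (in 0.00913%) were not in the window, with both strands searched. A match is a description of letters, and its use in these cells was not measured.

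Library depth ran from 29845097 to 42196472 counts, and 15144 of the 19250 features above 0 passed the filter on low counts. The cortical label was checked against 14 markers of excitatory cortical neurons, all of which passed the filter. Their summed level was 7579 to 7716 CPM, the count relative to the TMM-scaled library total, in SA:ANH-KDM5Ci, 7448 to 7771 CPM in SA:ANH-vehicle and 7789 to 8067 CPM in NS. Of 7 markers of choroid plexus and ependyma, 3 were below the filter, and the 4 tested summed to 4.28 to 5.54 CPM in SA:ANH-KDM5Ci, 5.06 to 6.70 CPM in SA:ANH-vehicle and 5.57 to 6.32 CPM in NS. Markers of tissue beside the cortex varied between libraries. For 14 tested striatal neuron markers the summed level was 391 to 882 CPM in SA:ANH-KDM5Ci, 335 to 437 CPM in SA:ANH-vehicle and 301.0 to 487 CPM in NS, with the highest value in SA:ANH-KDM5Ci replicate 1. For 16 markers of meninges and fibroblasts it was 411 to 550.2 CPM in SA:ANH-KDM5Ci, 642 to 882 CPM in SA:ANH-vehicle and 489 to 810 CPM in NS. In such bulk samples, fewer cells of a type and less RNA per cell cannot be told apart.

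Zfp189 was more than 3-fold higher in the inhibitor-treated stressed mice than in either of the other groups. The SA:ANH-KDM5Ci libraries held 25.7, 24.9 and 24.3 CPM, from expected counts of 784, 771 and 977. The SA:ANH-vehicle libraries held 7.78, 7.73 and 7.62 CPM, from expected counts of 332, 276 and 259. The NS libraries held 6.16, 6.35 and 7.63 CPM, from expected counts of 218, 228 and 228. All 3 inhibitor-treated libraries were high, and no library of another group came near them. The lowest of them, at 24.3 CPM, has a 95% exact Poisson interval of 22.8 to 25.9 CPM, against 6.96 to 8.66 CPM around the highest SA:ANH-vehicle library. These intervals cover counting error only.

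The group means were 25.0 ± 0.704 CPM in SA:ANH-KDM5Ci, 7.71 ± 0.0818 CPM in SA:ANH-vehicle and 6.71 ± 0.796 CPM in NS (SD, n = 3 each). SA:ANH-KDM5Ci over SA:ANH-vehicle gave a log2 fold change of 1.70 (SE 0.08), or 3.24-fold, and the 9 ratios between single libraries ran from 3.13 to 3.38. SA:ANH-KDM5Ci over NS gave 1.90 (SE 0.08), or 3.73-fold, with ratios from 3.19 to 4.18. Both comparisons share the inhibitor-treated libraries. In order of level, SA:ANH-KDM5Ci stood apart, and the ranges of SA:ANH-vehicle and NS overlapped.

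SA:ANH-vehicle over NS, which sets defeated mice of this subtype against non-stressed mice, gave a log2 fold change of 0.20 (SE 0.09), or 1.15-fold. NS replicate 3, at 7.63 CPM, lay within the range of the SA:ANH-vehicle libraries, so the groups overlapped, while the other NS libraries lay below that range. Of all genes tested, 8.29% had every SA:ANH-vehicle library above every NS library and 6.81% had every one below. Without NS replicate 3 the log2 fold change was 0.30 (SE 0.08), and without NS replicate 1 it was 0.15 (SE 0.10). By size, 1145 of the 15144 genes tested had a larger positive fold change in this comparison.

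**Figure D1:**
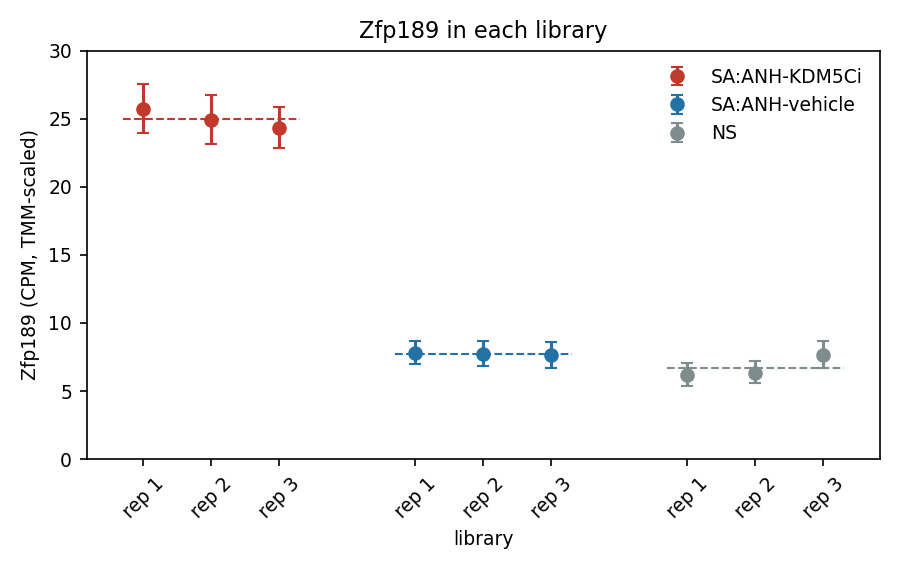
Zfp189 level in CPM (y axis) in each of the 9 libraries (x axis), with points for libraries, bars for the 95% exact Poisson interval of the count and dashed lines for group means. The SA:ANH-KDM5Ci libraries sit at 24.3 to 25.7 CPM, the SA:ANH-vehicle libraries at 7.62 to 7.78 CPM and the NS libraries at 6.16 to 7.63 CPM.

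Replicates of Zfp189 were close together in both stressed groups. Its coefficient of variation was 2.82% in SA:ANH-KDM5Ci, where the median over all genes tested was 6.88%. In SA:ANH-vehicle it was 1.06%, where the median gene had 6.03%, and in NS it was 11.9%, where the median gene had 6.13%. Counting error alone gives 3.47% in SA:ANH-KDM5Ci, 5.91% in SA:ANH-vehicle and 6.70% in NS at these depths. The spread between libraries was therefore below what counting gives in both SA:ANH-KDM5Ci and SA:ANH-vehicle, and it is not a measure of how stable the gene is in these mice. The dispersion fitted by edgeR, which borrows from other genes, corresponds to a biological coefficient of variation of 6.31% for Zfp189, beside 6.95% over all genes.

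Among all 15144 genes tested, the difference of Zfp189 between SA:ANH-KDM5Ci and SA:ANH-vehicle was at place 15 among positive fold changes and at place 27 by size in either direction, where the median gene differed by 0.08 on the log2 scale. The groups did not overlap, which was so in this direction for 7.92% of the genes tested. By the gap between the nearest libraries of the 2 groups, which was 1.64 on the log2 scale, Zfp189 was at place 3 of all genes. The 14 genes with a larger positive fold change were of lower level than Zfp189 in SA:ANH-vehicle, from 0.0788 CPM for Tbx21 to 3.54 CPM for Lrrc10b. They were led by Tmem252 at 3.47 and Maff, a small Maf transcription factor, at 2.42 on the log2 scale. The SE of the 14 ran from 0.18 for Maff to 1.26 for Tbx21, so their order is loose. Serpina9, one of them, is also on the list of striatal markers. Among the 11279 genes with at least 5 CPM in SA:ANH-vehicle, none had a larger positive fold change than Zfp189.

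Marker sums moved with the groups in part. Striatal sums were highest in 2 of the 3 SA:ANH-KDM5Ci libraries, and meningeal sums of all 3 lay below those of SA:ANH-vehicle but overlapped with NS. The meningeal score was -0.53 to -0.47 in SA:ANH-KDM5Ci, 0.05 to 0.68 in SA:ANH-vehicle and -0.19 to 0.43 in NS, so it set SA:ANH-KDM5Ci apart. In SA:ANH-KDM5Ci over SA:ANH-vehicle, 6 of 16 meningeal markers fell in the edgeR test, or 37.5%, where 1.62% of all genes fell. Of 9 endothelial markers 1 rose, or 11.1%, and 3 fell, or 33.3%. Of 6 oligodendrocyte precursor markers 2 rose, or 33.3%. Among all genes 0.891% rose and 1.62% fell. Blood cell sums were 376 to 499.5 CPM in SA:ANH-KDM5Ci and 419 to 475 CPM in SA:ANH-vehicle, both above the 242.5 to 277 CPM in NS. Sums of oligodendrocyte precursor markers were 261 to 280.5 CPM in SA:ANH-KDM5Ci, 221 to 243 CPM in SA:ANH-vehicle and 225 to 264 CPM in NS. The precursor markers did not move together in SA:ANH-KDM5Ci over SA:ANH-vehicle, with a median log2 fold change of 0.09. Olig2 and Olig1 were at 0.72 and 0.47, Pdgfra and Cspg4 at 0.12 and 0.06, and Sox10 and Gpr17 at -0.49 and -0.17. All 8 oligodendrocyte markers had a positive fold change in SA:ANH-KDM5Ci over SA:ANH-vehicle, with a median of 0.45 on the log2 scale, and 0 of them passed the edgeR test. With the striatal marker score as a covariate the log2 fold change of Zfp189 between SA:ANH-KDM5Ci and SA:ANH-vehicle was 1.72 (SE 0.10), and with the meningeal score it was 1.83 (SE 0.15). SA:ANH-KDM5Ci replicate 2 had a striatal sum of 391 CPM, inside the range of the SA:ANH-vehicle libraries, and had Zfp189 at 24.9 CPM. The meningeal scores of SA:ANH-KDM5Ci and SA:ANH-vehicle did not overlap, so in that fit the score and the treatment cannot be told apart. The part of any of these marker groups in the level of Zfp189 was not tested.

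**Figure D2:**
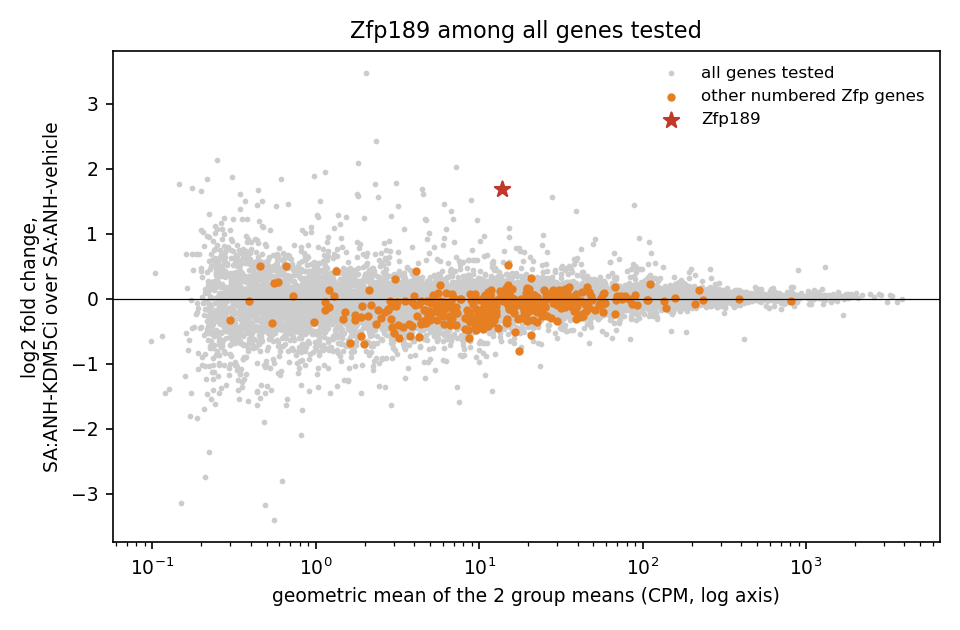
Log2 fold change of SA:ANH-KDM5Ci over SA:ANH-vehicle (y axis) against the geometric mean of both group means in CPM (log x axis) for all genes tested, with the other numbered Zfp genes in orange and Zfp189 as a star. Zfp189 lies at 1.70, above all genes of its level, while most of the other numbered Zfp genes lie below 0.

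None of the genes measured around Zfp189 passed the test. Within 500 kb on either side the annotation has 23 other genes, of which 7 passed the filter, 3 were below it, 4 were listed at 0 in every library and 9 were not analysed here. In the edgeR quasi-likelihood test, with Benjamini-Hochberg adjustment over all genes, 0 of the 7 tested neighbours rose or fell in SA:ANH-KDM5Ci over SA:ANH-vehicle, where 2.51% of all genes passed (380 of 15144). The median log2 fold change of the 7 was 0.01, against 0.00 over all genes. At an unadjusted p under 0.05, 2150 of all genes passed, and by DESeq2 and limma-voom the count among the neighbours was also 0.

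Mrpl50, the gene that starts next to Zfp189, was the closest comparison. Its level was 32.3, 34.4 and 37.4 CPM in the SA:ANH-KDM5Ci libraries, 32.2, 34.4 and 34.5 CPM in the SA:ANH-vehicle libraries and 31.3, 30.04 and 32.7 CPM in the NS libraries. The SA:ANH-KDM5Ci and SA:ANH-vehicle ranges overlapped, with SA:ANH-KDM5Ci replicate 3, at 37.4 CPM, above every SA:ANH-vehicle library. The log2 fold change of SA:ANH-KDM5Ci over SA:ANH-vehicle was 0.04 (SE 0.06, adjusted p = 0.822 in the edgeR quasi-likelihood test), and it was 0.10 (SE 0.06, adjusted p = 0.730) for SA:ANH-vehicle over NS. The annotated spans of the 2 genes do not overlap.

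Genes farther from Zfp189 had the following values. Rnf20, a ubiquitin ligase for histone H2B that lies 100447 bases away, was at 64.2 ± 2.78 CPM in SA:ANH-KDM5Ci and 64.4 ± 2.55 CPM in SA:ANH-vehicle (SD, n = 3 each), a log2 fold change of -0.01 (SE 0.05). Grin3a, a subunit of NMDA receptors, had a log2 fold change of 0.01 (SE 0.09), Pgap4, an enzyme of GPI anchor synthesis, 0.01 (SE 0.05), and Plppr1, a phospholipid phosphatase-related membrane protein of neurons, 0.09 (SE 0.11). The widest error was that of Ppp3r2, a calcineurin subunit known from testis, at 0.379 ± 0.0710 CPM in SA:ANH-KDM5Ci and 0.569 ± 0.168 CPM in SA:ANH-vehicle (SD, n = 3 each), with a log2 fold change of -0.61 with an SE of 0.31 (adjusted p = 0.409 in the edgeR quasi-likelihood test). In SA:ANH-vehicle over NS and in SA:ANH-KDM5Ci over NS, 0 of the 7 passed as well, where 0.0132% and 3.97% of all genes did.

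**Figure D3:**
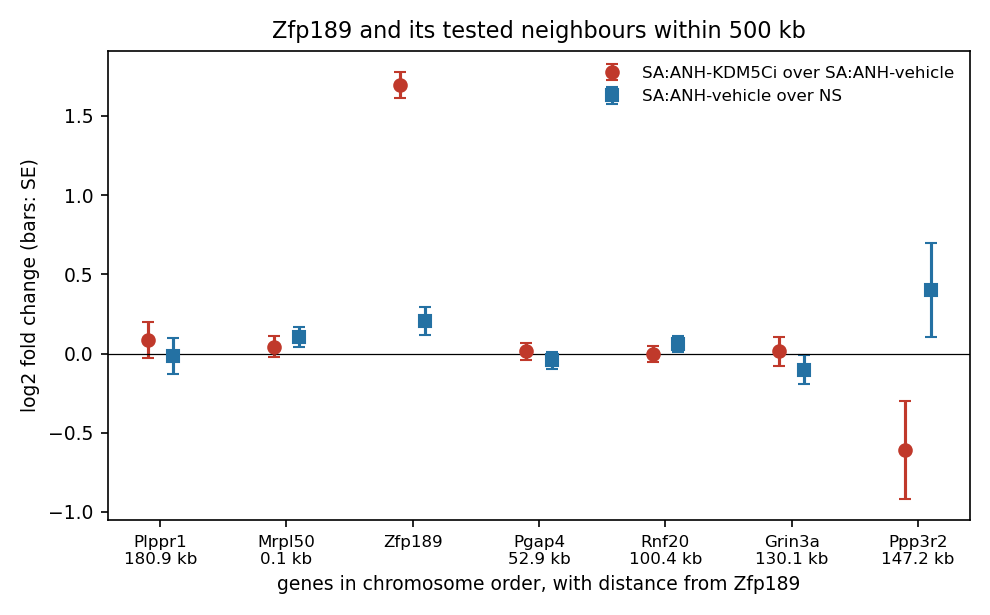
Log2 fold change (y axis, bars are SE) of Zfp189 and 6 of its 7 tested neighbours within 500 kb, in chromosome order with their distance from Zfp189 (x axis), for SA:ANH-KDM5Ci over SA:ANH-vehicle (circles) and SA:ANH-vehicle over NS (squares). Zfp189 stands at 1.70 in the first comparison, and Mrpl50 beside it at 0.04.

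Among the other zinc finger genes, more fell than rose in the inhibitor-treated mice. Of 401 other genes with a numbered Zfp symbol, 363 passed the filter, 15 were below it, 16 were listed at 0 in every library and 7 were not analysed here. In SA:ANH-KDM5Ci over SA:ANH-vehicle, 26 of the 363 fell, or 7.16%, where 1.62% of all genes fell, and 2 rose, or 0.551%, where 0.891% of all genes rose, in the edgeR quasi-likelihood test (Benjamini-Hochberg, all genes). Their median log2 fold change was -0.09 against 0.00 over all genes, and 25.6% of them had a positive one against 51.1% of all genes. The fold changes ran from -0.80 to 0.52, so none of the 363 reached the 1.70 of Zfp189. A numbered Zfp symbol groups proteins by name, and most but not all of them have C2H2 fingers.

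The genes of lowest p among those that fell were of 2 kinds. Zfp36l1 and Zfp36l2 encode CCCH zinc finger proteins that bind AU-rich elements in messenger RNA and speed its decay, and they are not of the KRAB class. Zfp36l1 was at 13.1, 13.9 and 12.8 CPM in the SA:ANH-KDM5Ci libraries, 24.2, 21.7 and 23.5 CPM in the SA:ANH-vehicle libraries and 26.8, 23.4 and 23.6 CPM in the NS libraries. The inhibitor-treated libraries were all lower than the others, and the log2 fold change over SA:ANH-vehicle was -0.80 with an SE of 0.08 (adjusted p = 8.19e-05 in the edgeR quasi-likelihood test). Zfp36l2 was at 17.2 ± 0.325 CPM in SA:ANH-KDM5Ci and 25.3 ± 0.583 CPM in SA:ANH-vehicle (SD, n = 3 each), a log2 fold change of -0.56 with an SE of 0.06 (adjusted p = 0.000381 by the same test).

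The next 3 that fell were Zfp712 at -0.60, Zfp882 at -0.46 and Zfp697 at -0.52 on the log2 scale, with adjusted p of 0.00308, 0.00496 and 0.00953 in the edgeR quasi-likelihood test. Zfp712 was at 7.01 ± 0.0570 CPM in SA:ANH-KDM5Ci and 10.6 ± 0.962 CPM in SA:ANH-vehicle (SD, n = 3 each). Zfp697 lost its call when SA:ANH-vehicle replicate 2 was left out (adjusted p = 0.0542) and without SA:ANH-KDM5Ci replicate 3 (adjusted p = 0.0517). The 28 genes that passed, or 7.71% of the list against 2.51% of all genes, lie on 11 chromosomes. On chromosome 7, which has the most tested, 4 of 88 passed. There were 8 of 46 on chromosome 17, 4 of 37 on chromosome 13 and 0 of 16 on chromosome 4, which holds Zfp189. Shares of all genes by chromosome were not counted. Many of these genes are close copies of each other, and how the authors' counting split reads between copies is not stated.

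The 2 that rose were Zfp628, at 16.7, 17.9 and 19.5 CPM in the SA:ANH-KDM5Ci libraries, 12.6, 12.96 and 12.2 CPM in the SA:ANH-vehicle libraries and 13.2, 14.5 and 14.4 CPM in the NS libraries, and Zfp804a. All inhibitor-treated libraries were higher for Zfp628, with a log2 fold change of 0.52 with an SE of 0.08 (adjusted p = 0.00265 in the edgeR quasi-likelihood test). Zfp804a, whose human counterpart is a candidate gene for schizophrenia, rose by 0.31 (SE 0.07, adjusted p = 0.0411 by the same test). Its call was lost without any of SA:ANH-KDM5Ci replicates 1 and 3, SA:ANH-vehicle replicates 2 and 3 and NS replicates 2 and 3, with adjusted p up to 0.169. It was also lost without TMM (adjusted p = 0.0572), with only the 2 groups in the fit (adjusted p = 0.0829) and with the replicate block (adjusted p = 0.0605).

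The count of these genes depended on single libraries and on the marker scores. Leaving out SA:ANH-KDM5Ci replicate 1, 2 or 3 gave 13, 12 and 6 calls, leaving out SA:ANH-vehicle replicate 1, 2 or 3 gave 8, 10 and 14, and leaving out NS replicate 2 gave 18. Calls over all genes dropped too, from 380 to 204 without SA:ANH-KDM5Ci replicate 3. They were 253 without SA:ANH-vehicle replicate 1 and 203 without SA:ANH-vehicle replicate 2. With the striatal score as a covariate the count was 5, and with the meningeal score it was 1. Calls over all genes were not counted in these 2 fits, so a loss particular to the Zfp genes cannot be told from a general one. The median log2 fold change of the tested Zfp genes was -0.09 with the striatal score and -0.02 with the meningeal score, against 0.00 over all genes in both. In SA:ANH-vehicle over NS, 0 of the 363 passed in the edgeR quasi-likelihood test, where 0.0132% of all genes did, with a median of 0.03. In SA:ANH-KDM5Ci over NS, 17 fell, or 4.68%, where 2.11% of all genes fell, and 5 rose, or 1.38%, where 1.86% rose.

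**Figure D4:**
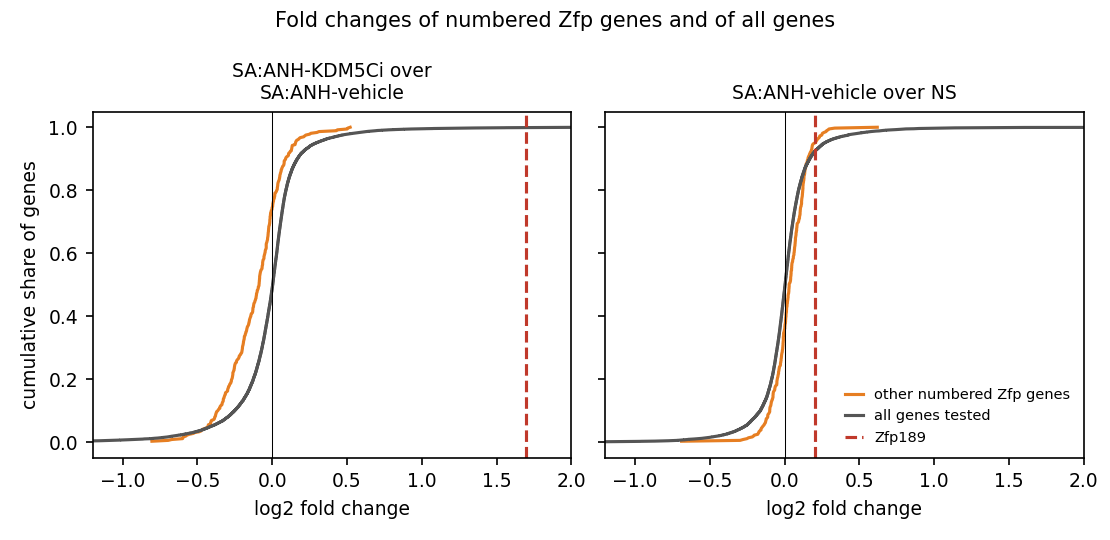
Cumulative share of genes (y axis) by log2 fold change (x axis) for the 363 other numbered Zfp genes and for all genes tested, with Zfp189 as a dashed line, in SA:ANH-KDM5Ci over SA:ANH-vehicle (left) and SA:ANH-vehicle over NS (right). On the left the Zfp curve lies left of that of all genes, with medians of -0.09 and 0.00, and Zfp189 lies at 1.70, to the right of every other Zfp gene.

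The genes through which KRAB zinc finger proteins repress their targets had no member that passed. Of 29 such genes, 28 were tested and 0 rose or fell in SA:ANH-KDM5Ci over SA:ANH-vehicle in the edgeR quasi-likelihood test, where 2.51% of all genes passed, and the count was also 0 by DESeq2 and limma-voom. The median log2 fold change was 0.00. Trim28, the corepressor that KRAB domains bind, was at 131.7 ± 6.93 CPM in SA:ANH-KDM5Ci and 127 ± 3.18 CPM in SA:ANH-vehicle (SD, n = 3 each), a log2 fold change of 0.05 (SE 0.05), and was named after its values were seen. Setdb1, the methyltransferase of the complex, was at 43.0 ± 1.12 CPM in SA:ANH-KDM5Ci and 46.4 ± 2.16 CPM in SA:ANH-vehicle (SD, n = 3 each), a log2 fold change of -0.11 with an SE of 0.05 (adjusted p = 0.361 by the same test). Smarcad1, a chromatin remodeller that binds TRIM28, was at -0.19 (adjusted p = 0.164), Mta1, of the NuRD complex, at 0.10 (adjusted p = 0.32) and Uhrf1, a partner of DNA methyltransferase 1, at 0.44 (adjusted p = 0.423). In SA:ANH-vehicle over NS and in SA:ANH-KDM5Ci over NS, 0 of the 28 passed as well, where 0.0132% and 3.97% of all genes did.

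CREB and the proteins that act on it were the second list. Of 31 genes, 0 passed in SA:ANH-KDM5Ci over SA:ANH-vehicle in the edgeR quasi-likelihood test, against 2.51% of all genes, with a median log2 fold change of 0.00, and the count was 0 by DESeq2 and by limma-voom. Creb1, which encodes CREB, was at 71.6, 75.0 and 69.0 CPM in the SA:ANH-KDM5Ci libraries, 83.8, 78.7 and 77.2 CPM in the SA:ANH-vehicle libraries and 66.3, 76.8 and 72.5 CPM in the NS libraries. The SA:ANH-KDM5Ci libraries lay below the SA:ANH-vehicle libraries, as for 10.9% of all genes tested, and overlapped with NS. The log2 fold change of Creb1 was -0.15 (SE 0.06, adjusted p = 0.253) in SA:ANH-KDM5Ci over SA:ANH-vehicle and 0.15 (SE 0.06, adjusted p = 0.528) in SA:ANH-vehicle over NS by the same test. Message levels say nothing of phosphorylated CREB, which was not measured.

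The members of lowest p in that list besides Creb1 were Camkk1, a kinase upstream of calcium/calmodulin-dependent kinases, at 0.14 (adjusted p = 0.149), Sik3, a salt-inducible kinase that restrains CREB coactivators, at 0.15 (adjusted p = 0.172), and Camk4, a kinase of CREB, at 0.15 (adjusted p = 0.313), each in the edgeR quasi-likelihood test. Camkk1 was at 144, 145 and 153 CPM in the SA:ANH-KDM5Ci libraries, 136, 132 and 135 CPM in the SA:ANH-vehicle libraries and 124, 125 and 125 CPM in the NS libraries. Each group lay above the next with no overlap. Of all genes tested, 7.92% had SA:ANH-KDM5Ci wholly above SA:ANH-vehicle, and 8.29% had SA:ANH-vehicle wholly above NS. In SA:ANH-KDM5Ci over NS it rose by 0.24 (SE 0.04, adjusted p = 0.00764 in the edgeR quasi-likelihood test), the 1 call of 31 in that comparison, where 3.97% of all genes passed. Without NS replicate 1, and with only the 2 groups in the fit, 1 gene of the list rose in SA:ANH-KDM5Ci over SA:ANH-vehicle.

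Of 33 genes known as targets of CREB, 2 rose, or 6.06%, where 0.891% of all genes rose, and 1 fell, or 3.03%, where 1.62% of all genes fell, in SA:ANH-KDM5Ci over SA:ANH-vehicle in the edgeR quasi-likelihood test. Their median log2 fold change was 0.04. This list was chosen with earlier results of these data known, and it holds Maff, named above among the largest rises. Its shares are therefore a description. Maff was at 5.48, 4.65 and 6.07 CPM in the SA:ANH-KDM5Ci libraries, 0.937, 1.12 and 0.971 CPM in the SA:ANH-vehicle libraries and 0.848, 0.669 and 0.502 CPM in the NS libraries. It was high in all inhibitor-treated libraries, and rose by 2.42 on the log2 scale (SE 0.18, adjusted p = 9.61e-06). Gem, a small GTPase that restrains calcium channels, was at 2.49 ± 0.235 CPM in SA:ANH-KDM5Ci and 1.39 ± 0.199 CPM in SA:ANH-vehicle (SD, n = 3 each), and rose by 0.84 (SE 0.17, adjusted p = 0.0218 in the edgeR quasi-likelihood test). Its call did not hold without SA:ANH-vehicle replicate 2 or 3 or SA:ANH-KDM5Ci replicate 2 or 3, with adjusted p up to 0.103.

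Rgs2, a regulator of G protein signalling, fell to 40.2 ± 1.16 CPM in SA:ANH-KDM5Ci, against 52.6 ± 3.19 CPM in SA:ANH-vehicle (SD, n = 3 each), a log2 fold change of -0.39 with an SE of 0.07 (adjusted p = 0.00789 in the edgeR quasi-likelihood test). Nr3c1, the glucocorticoid receptor, was at -0.23 (SE 0.06, adjusted p = 0.0721 by the same test). It passed by DESeq2 (adjusted p = 0.0244), and in edgeR without TMM (adjusted p = 0.0445) or without SA:ANH-vehicle replicate 3 (adjusted p = 0.0406). Bdnf, a neurotrophin named after its values were seen, was at 35.9 ± 5.89 CPM in SA:ANH-KDM5Ci and 39.2 ± 5.07 CPM in SA:ANH-vehicle (SD, n = 3 each), a log2 fold change of -0.12 with an SE of 0.12 (adjusted p = 0.736). In SA:ANH-vehicle over NS, 0 of the 33 passed, where 0.0132% of all genes did. In SA:ANH-KDM5Ci over NS 3 rose, or 9.09%, where 1.86% of all genes rose, and 0 fell, where 2.11% fell.

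The family of the inhibited enzyme was measured at the level of its messages. Kdm5c was at 59.4, 57.9 and 57.5 CPM in the SA:ANH-KDM5Ci libraries, 64.0, 66.6 and 60.7 CPM in the SA:ANH-vehicle libraries and 61.6, 61.7 and 63.0 CPM in the NS libraries. The inhibitor-treated libraries were the lowest, and the log2 fold change over SA:ANH-vehicle was -0.13 with an SE of 0.05 (adjusted p = 0.222 in the edgeR quasi-likelihood test). Of all genes tested, 10.9% had every SA:ANH-KDM5Ci library below every SA:ANH-vehicle library. Kdm5a, Kdm5b and Kdm5d were at -0.06, -0.10 and -0.10 on that scale, with adjusted p of 0.716, 0.582 and 0.762 by the same test. The message does not report on enzyme activity, which was not measured.

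Of 23 enzymes and cofactors of H3 lysine 4 methylation, 0 rose in SA:ANH-KDM5Ci over SA:ANH-vehicle, where 0.891% of all genes rose. In the same comparison 1 fell, or 4.35%, where 1.62% of all genes fell. The member that fell was Kdm1b, a flavin-dependent demethylase, at 7.68, 8.05 and 7.12 CPM in the SA:ANH-KDM5Ci libraries, 10.45, 9.60 and 9.32 CPM in the SA:ANH-vehicle libraries and 9.98 ± 0.0403 CPM in NS (SD, n = 3). Its log2 fold change was -0.37 with an SE of 0.08 (adjusted p = 0.0365 in the edgeR quasi-likelihood test), and the call was lost in 8 of the 9 fits without 1 library, with adjusted p up to 0.154. Setd1a and Setd1b, methyltransferases, were at 0.14 and -0.25 (adjusted p = 0.185 and 0.182 by the same test). In SA:ANH-vehicle over NS 0 of the 23 passed, where 0.0132% of all genes did, and in SA:ANH-KDM5Ci over NS 0 rose and 1 fell, or 4.35%, where 2.11% of all genes fell.

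The genes whose levels followed Zfp189 most closely were found by Pearson's r of log2 CPM over the 9 libraries, among 12897 genes with a mean of at least 1 CPM. Of these, 121 had an r of at least 0.9 and 130 an r of at most -0.9. The libraries form a high group and a low group for Zfp189, so a high r is set mostly by the inhibitor-treated libraries, and the values are given as a description. The 10 highest were Nedd9 at 0.985, Sgk1, Nfkbia, Errfi1, Sesn1, Klf13, Tagap, Spns2, Golm1 and Sap30 at 0.974. Over the 6 SA:ANH-vehicle and NS libraries alone, r ran from -0.01 for Golm1 to 0.881 for Sesn1 among them, with 0.061 for Sgk1.

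Sgk1, the serum- and glucocorticoid-regulated kinase, was at 161, 134 and 143 CPM in the SA:ANH-KDM5Ci libraries, 56.6, 53.0 and 51.6 CPM in the SA:ANH-vehicle libraries and 57.6, 48.4 and 52.9 CPM in the NS libraries. Nfkbia, the inhibitor of NF-kB, was at 52.7, 40.9 and 50.5 CPM in SA:ANH-KDM5Ci, 17.5, 16.5 and 14.9 CPM in SA:ANH-vehicle and 16.0, 12.7 and 15.5 CPM in NS. For both, the inhibitor-treated libraries stood apart from 2 overlapping groups, as for Zfp189. Sap30, a subunit of the SIN3 histone deacetylase complex, was at 9.07 ± 0.312 CPM in SA:ANH-KDM5Ci, 4.31 ± 0.336 CPM in SA:ANH-vehicle and 3.98 ± 0.463 CPM in NS (SD, n = 3 each). Of the 10, Sgk1, Nfkbia and Sap30 were past a log2 fold change of 1 in SA:ANH-KDM5Ci over SA:ANH-vehicle, at 1.44, 1.56 and 1.07.

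The other genes of the 10 were also highest in the SA:ANH-KDM5Ci libraries, with smaller differences. Nedd9, a scaffold of focal adhesions, was at 14.7 ± 0.876 CPM in SA:ANH-KDM5Ci, 10.04 ± 0.194 CPM in SA:ANH-vehicle and 9.79 ± 0.269 CPM in NS (SD, n = 3 each). Errfi1, a feedback inhibitor of the EGF receptor, had a log2 fold change of 0.62 over SA:ANH-vehicle, Spns2, a transporter of sphingosine 1-phosphate, 0.56, and Golm1, a Golgi membrane protein, 0.47. Sesn1, a stress-induced inhibitor of mTORC1, was at 0.32, Klf13, a Kruppel-like transcription factor, at 0.31, and Tagap, a GTPase-activating protein known from T cells, at 0.21. Tagap did not pass in this comparison (adjusted p = 0.129 in the edgeR quasi-likelihood test). Zfp189 thus had a larger fold change than any of the 10 genes most like it.

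The genes of lowest r included Sox9 at -0.995, Mex3b at -0.993, Notum at -0.990 and Zfp36l1 at -0.986. Sox9, a transcription factor of glia, was at 15.1, 17.1 and 17.1 CPM in the SA:ANH-KDM5Ci libraries, 33.8, 33.7 and 33.2 CPM in the SA:ANH-vehicle libraries and 37.1, 35.8 and 34.9 CPM in the NS libraries. The order of the groups was the reverse of that of Zfp189, with the least Sox9 in the inhibitor-treated mice. Over the 6 SA:ANH-vehicle and NS libraries r was -0.915 for Sox9, -0.838 for Notum, -0.695 for Mex3b and -0.622 for Zfp36l1. Mex3b, an RNA-binding protein, had a log2 fold change of -0.68 over SA:ANH-vehicle, and Notum, an enzyme that inactivates Wnt ligands, -1.03.

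**Figure D5:**
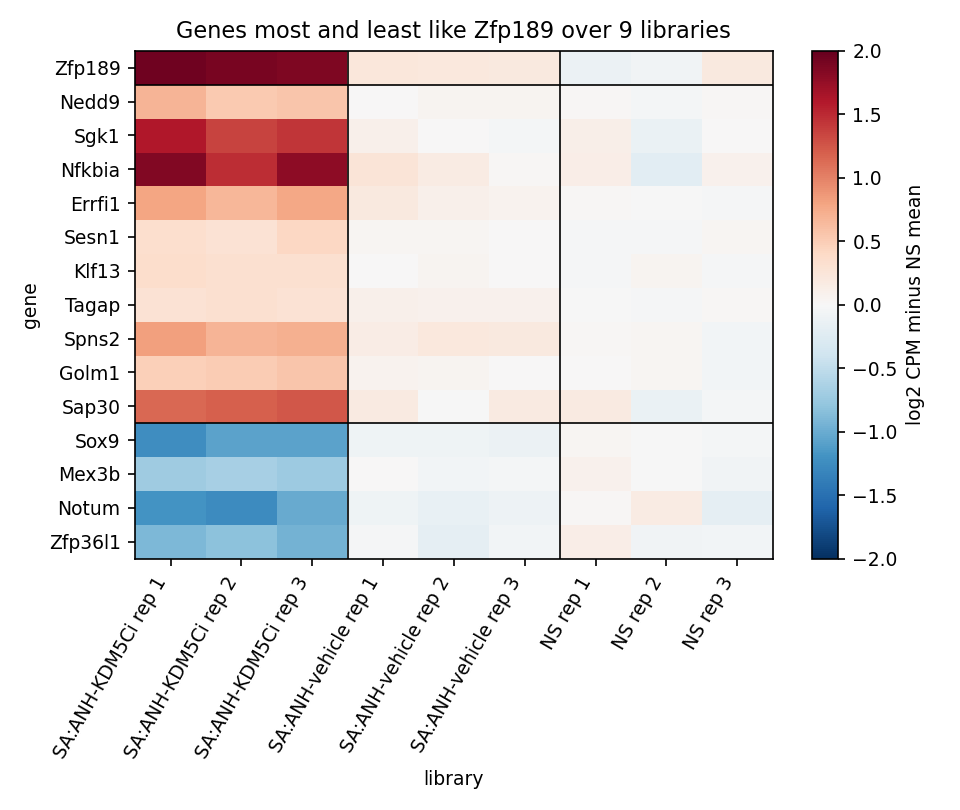
Log2 CPM minus the mean of the NS libraries (colour) for Zfp189, the 10 genes of highest and 4 of the 5 of lowest Pearson's r with it (rows) in each of the 9 libraries (columns). The SA:ANH-KDM5Ci columns stand apart in every row, with log2 fold changes over SA:ANH-vehicle from 0.21 for Tagap to 1.70 for Zfp189 above the line and from -1.03 for Sox9 and Notum to -0.68 for Mex3b below it.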

How the data were processed

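RNA was sequenced from 9 samples of frozen medial prefrontal cortex, with libraries from a strand-specific kit, per the labels' protocols. Trimmomatic 0.32, TopHat2 2.0.13, Bowtie2 2.2.3 and mm10 are named in the submitters' processing notes. The authors deposited expected counts per gene, unnormalized, which need not be whole numbers. The counting tool and its use of strand are not given in the sources used here.

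Expected counts were rounded and filtered with edgeR's filterByExpr, which left 15144 of 36172 features, and scaled by TMM (factors from 0.987 to 1.01). Total counts ran from 29845097 to 42196472. Groups were compared in a single fit of all 9 libraries in edgeR 4.0.16 (R 4.3.3), by its quasi-likelihood test with robust glmQLFit, and p-values were adjusted by Benjamini-Hochberg and called at 0.05. An SE is the size of the log2 fold change divided by the square root of F. Symbols and positions came from RefSeq GRCm38.p6. Log2 CPM used a prior count of 2. A marker score is the median of gene-centred log2 CPM.

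The members and lists were chosen with earlier results of these data known. Named genes are Zfp189, the 10 genes of highest and 5 of lowest r with it, its tested neighbours within 500 kb, up to 5 called Zfp genes per direction, 4 members of lowest p per list and the Kdm5 genes. A pair of genes that this rule names is not reported here, though counts include them. Alternatives were DESeq2 1.42.0, its size factors, limma-voom (limma 3.58.1), no TMM, other filters, 2 groups only, no robust moderation, a replicate block and each library left out. Marker scores as covariates were added after seeing the data. The labels do not state whether a group's samples are separate animals, so a p-value here reflects the spread among the samples alone, and that spread may be technical. Tested on simulated counts of 15099 genes for SA:ANH-KDM5Ci over SA:ANH-vehicle, the test recovered 98 of 100 genes changed 2-fold and 92 of 100 changed 1.5-fold. It also called 5 unchanged genes. The simulation gave every gene the same dispersion, had no tissue differences and changed no genes of very low count, so recovery in the real libraries may be lower.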

Additional observations from a re-analysis of the deposited data

How the results depend on the processing

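The log2 fold change of Zfp189 moved by less than the spread between replicates under every alternative but the meningeal covariate, with values from 1.68 to 1.72 without 1 library in SA:ANH-KDM5Ci over SA:ANH-vehicle, from 0.15 to 0.30 in SA:ANH-vehicle over NS and from 1.85 to 1.996 in SA:ANH-KDM5Ci over NS. Adding the meningeal score to the fit gave 1.83 for the first. Correlations of libraries' deviations from group means ran from -0.144 to 0.238 for the same number and from -0.251 to 0.209 for different numbers. Between SA:ANH-KDM5Ci and SA:ANH-vehicle the same-numbered values were 0.238, 0.084 and 0.184. The different-numbered values of these groups were lower for the most part, at -0.251, -0.142, -0.114, -0.065, -0.016 and 0.085. A shared replicate structure in this comparison was not tested beyond the fit with a replicate block, and the main fit does not use the numbers. With the replicate block the value was 1.69, 363 genes were called and 24 other Zfp genes passed.

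Genes called over the table without 1 library ran from 203 to 429 in SA:ANH-KDM5Ci over SA:ANH-vehicle, 2 to 17 in SA:ANH-vehicle over NS and 269 to 747 in SA:ANH-KDM5Ci over NS. SA:ANH-vehicle over NS gave 81 by DESeq2, 11 without TMM, 11 with no filter and 17 with only the 2 groups. The other Zfp genes called ran from 6 to 33 without 1 library, and were 18 with only the 2 groups, 5 with the striatal and 1 with the meningeal score. In the fits with a score, calls over all genes were not counted. CREB family calls ran from 0 to 1, with 1 in the 2-group fit, and CREB targets from 2 to 4, with 5 by DESeq2. H3K4 enzymes ran from 0 to 1, with 0 in the 2-group fit. Of the 10 genes most like Zfp189, 0 were among the 10 highest by Spearman's rho and 5 to 9 were kept without 1 library. The causes were not tested.

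Without 1 library, log2 fold changes ran from -0.015 to 0.177 for Plppr1, -0.016 to 0.095 for Mrpl50, -0.029 to 0.05 for Pgap4, -0.094 to 0.105 for Grin3a, -0.038 to 0.027 for Rnf20 and -0.185 to 0.031 for Kdm5d. These uncalled genes near 0 changed sign: Plppr1 (-0.015 without SA:ANH-KDM5Ci replicate 1), Mrpl50 (-0.016 without SA:ANH-KDM5Ci replicate 3), Pgap4 (-0.010 without TMM, -0.029 without SA:ANH-vehicle replicate 1, -0.011 without SA:ANH-KDM5Ci replicate 3), Grin3a (-0.009 without TMM, -0.027 without SA:ANH-vehicle replicate 1, -0.094 without SA:ANH-KDM5Ci replicate 2), Rnf20 (0.027 without SA:ANH-vehicle replicate 2, 0.003 and 0.021 without SA:ANH-KDM5Ci replicate 2 and 3) and Kdm5d (0.031 without SA:ANH-KDM5Ci replicate 3). Depth limits low genes such as Ppp3r2.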
